A study of Mus musculus with 18 samples.

Results

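The genes described here are 52 genes of ribosome biogenesis, the nucleolus and polyamine synthesis, out of 32285 genes in the deposited table. They were taken by gene name from a fixed list, which was chosen with earlier results of these data known. All 52 were found and passed the filter on low counts. The series has 18 RNA libraries. They were made from CD45.2+ cells of C57BL/6 mouse bone marrow, collected by flow cytometry, which the labels call iLS cells. The 6 groups of 3 libraries were cells with the BRD9-NUTM1 fusion (BN1), cells with the AFF1-NUTM1 fusion (AFFN1) and control cells without a named fusion, each on day 6 and on day 14. The day 6 controls are called Mock in the library names. NUTM1 fusions join NUTM1 to a partner gene and occur in leukaemia of B-cell precursors. How the fusions were delivered, from which promoter they were expressed and whether the 3 libraries of a group come from separate animals or cultures is not given in the sources used here, so the p-values measure only the spread between these libraries.

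Ribosomes are assembled in the nucleolus. RNA polymerase I transcribes a long precursor, small nucleolar particles of the box C/D and box H/ACA kinds guide its methylation and pseudouridylation, and processing factors cut and fold it into the small and the large subunit. Polyamines are made from ornithine and bind ribosomal RNA. Many of these genes are well known targets of the transcription factor Myc, and proliferating B-cell precursors depend on them for growth.

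Each library held between 14182539 and 17702578 counts on day 6 and between 17813841 and 18383449 on day 14. Ptprc, which encodes CD45, was present in every library at 185 to 407 CPM (counts per 1e6 counts, scaled by TMM over all 18 libraries, as are all levels below). The 9 markers of B-cell precursors summed to 4950 to 12100 CPM, whereas the lists for myeloid, stromal, T and NK, and erythroid cells each stayed at or under 152 CPM. Some libraries stood apart for the ribosome biogenesis genes whatever their group. On day 6, AFFN1 library 3 was above AFFN1 libraries 1 and 2 for 51 of the 52 genes, and control library 2 was the highest of the 9 libraries for 51 genes. On day 14, control library 1 was the highest of the 9 libraries for 46 genes, and BN1 library 2 was the lowest for 32. Results that rest on one of these libraries are given below with and without it. The orders of libraries were counted for the 52 genes only. Whether all genes followed the same orders was not tested.

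**Figure D1:**
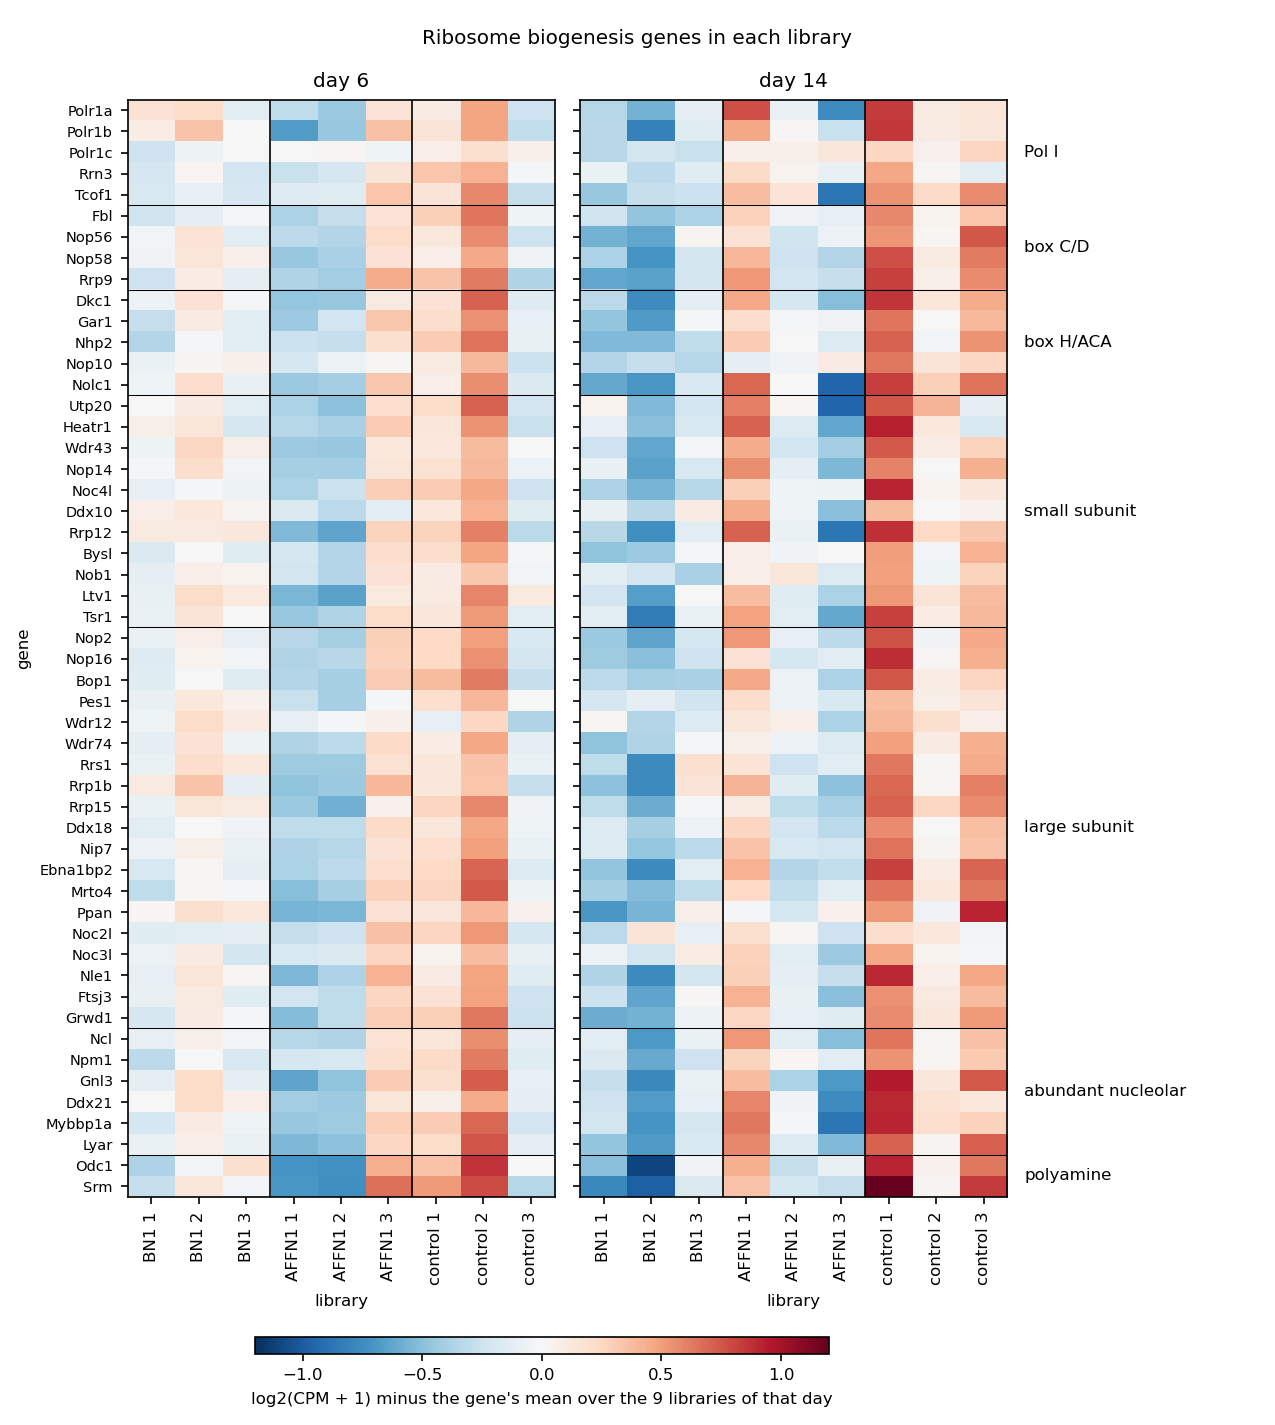
Level of each of the 52 genes (rows, by role) in each library (columns), as log2(CPM + 1) minus the gene's mean over the 9 libraries of the same day. On day 6 the AFFN1 libraries 1 and 2 are low and control library 2 is high for nearly all rows, and on day 14 the BN1 libraries are low and control library 1 is high.

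Ribosome biogenesis genes were lower in BN1 cells than in control cells on day 14. With the libraries of one number treated as a block, 35 of the 52 genes were lower and 0 higher at an adjusted p under 0.05 (edgeR's quasi-likelihood test), against 6.61% of all tested genes lower and 4.95% higher. All 52 log2 fold changes were below 0, as were 50.1% of those of all genes, and their median was -0.76, against -0.00 over all genes. The 3 BN1 libraries lay below all 3 control libraries for 41 genes, which was so for 14.7% of all genes. In bulk RNA, fewer cells of a type and less RNA per cell cannot be told apart.

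The calls on day 14 depended on the block and on single libraries. The 3 libraries of a number share a code in their names, and the block was chosen with the result of both fits known. Without it, 0 of the 52 genes and 0.0257% of all genes were called, while the median log2 fold change of the 52 genes was -0.79. Without control library 3, 0 were called, beside 0.236% of all genes in either direction, and without control library 1, 4 were called, beside 1.57%. Without BN1 library 2, 7 were called, and without BN1 library 1, 13, each beside 2.79% of all genes. Leaving out all libraries numbered 2 left 3 calls (1.22% of all genes), and leaving out all those numbered 1 left 20 (5.07%). The median log2 fold change itself stayed between -0.96 and -0.62 when any library or number was left out.

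**Figure D2:**
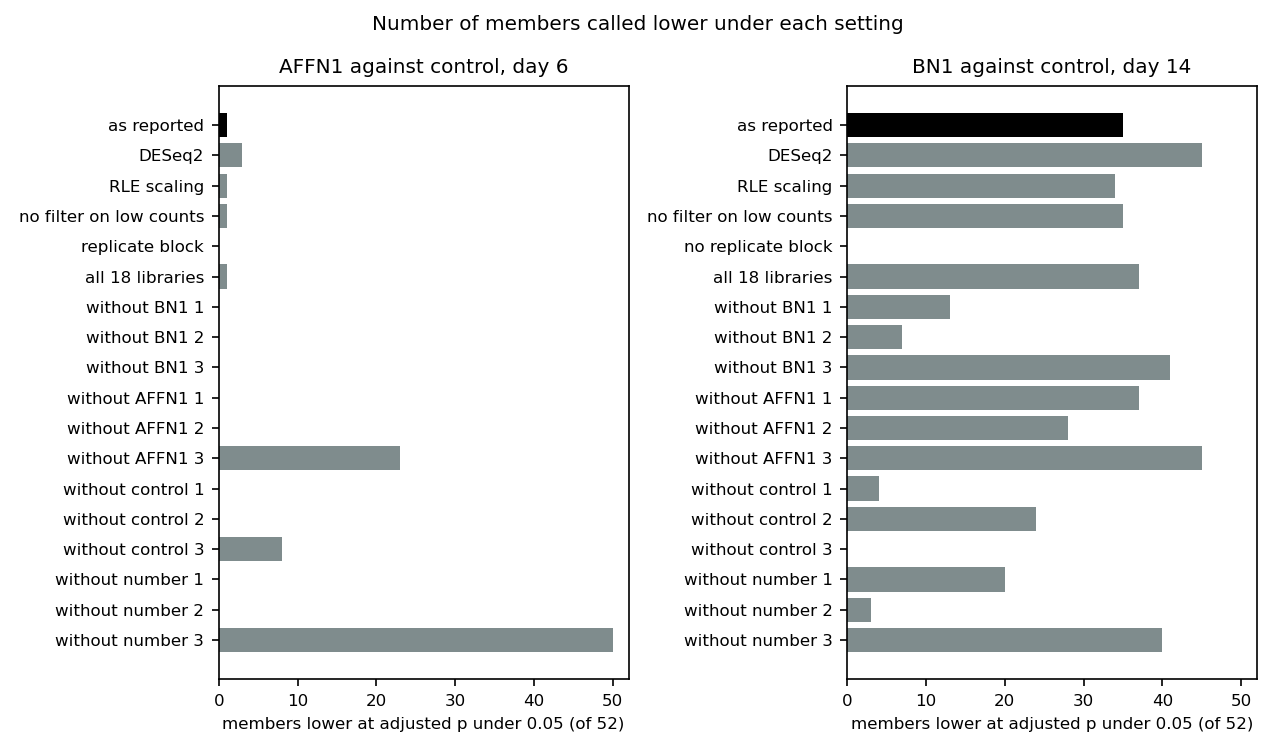
Number of the 52 genes called lower at an adjusted p under 0.05 (bars) as reported (black) and under each other setting or with libraries left out (grey), for AFFN1 against control on day 6 and BN1 against control on day 14. The day 14 count of 35 fell to 0 without the block and without control library 3. The day 6 count of 1 became 50 without the libraries numbered 3, and 0 without those numbered 1 or those numbered 2.

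The 2 genes of polyamine synthesis had the largest differences. Srm, spermidine synthase, had 58.7, 50.8 and 89.5 CPM in BN1 cells, against 234, 103 and 181 CPM in control cells. All BN1 libraries were below all control libraries, and Srm was 39.2% of its control level (log2 fold change -1.35, SE 0.25, adjusted p 0.0195). Odc1, ornithine decarboxylase, which catalyses the first step of polyamine synthesis, had 91.1, 59.9 and 126 CPM in BN1 cells and 245, 134 and 202 CPM in control cells. Its groups did not overlap either, although BN1 library 3 came close to control library 2, and its log2 fold change was -1.09 (SE 0.18, adjusted p 0.0122).

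All 4 genes of the box C/D particles, which methylate ribosomal RNA, fell. Fbl, the methyltransferase itself, had 218, 185 and 198 CPM in BN1 cells and 385, 265 and 324 CPM in control cells. The BN1 values were close together and below every control value, with a log2 fold change of -0.70 (SE 0.12, adjusted p 0.0121). Nop56, a core protein of these particles, had 124, 119 and 188 CPM in BN1 cells and 265, 187 and 308 CPM in control cells. BN1 library 3 was level with control library 2, so the groups overlapped by that pair of libraries, and the log2 fold change was -0.83 (SE 0.15, adjusted p 0.0147). Rrp9, a protein of the particle that starts small subunit processing, had 14.9, 14.7 and 20.0 CPM in BN1 cells and 42.3, 24.6 and 35.2 CPM in control cells, without overlap (log2 fold change -1.02, SE 0.21, adjusted p 0.0206). Nop58, the partner of Nop56, differed by a log2 fold change of -0.96 (adjusted p 0.0125).

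Of the 5 genes of the box H/ACA particles, which convert uridine to pseudouridine, 4 fell. Dkc1, the pseudouridine synthase, had 81.3, 60.2 and 94.9 CPM in BN1 cells and 186, 113 and 140 CPM in control cells. The groups did not overlap, with a log2 fold change of -0.89 (SE 0.20, adjusted p 0.0253). Its partners Nhp2, Gar1 and Nop10 were lower by log2 fold changes of -0.89, -0.77 and -0.70. Nolc1, a chaperone of these particles, did not pass the test. It had 93.8, 88.6 and 127 CPM in BN1 cells and 257, 177 and 227 CPM in control cells. The groups were apart, but the log2 fold change of -1.08 had an SE of 0.38 (adjusted p 0.116), and the AFFN1 libraries in the same fit ran from 74.1 to 234 CPM.

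Of the 5 genes of RNA polymerase I transcription, 2 fell. Polr1b, a catalytic subunit, had 28.4, 20.1 and 32.4 CPM in BN1 cells and 65.4, 38.6 and 39.5 CPM in control cells. All BN1 values were under all control values, and the log2 fold change was -0.81 (SE 0.19, adjusted p 0.0294). Polr1c, a subunit that RNA polymerases I and III share, fell by 0.49 on the log2 scale (adjusted p 0.0309). Polr1a, the largest subunit, had 62.7, 53.6 and 73.7 CPM in BN1 cells and 144, 86.0 and 88.5 CPM in control cells. The groups did not overlap, but control library 1 was far above the others, and the log2 fold change of -0.69 did not pass (SE 0.29, adjusted p 0.162). Tcof1, which recruits factors to ribosomal genes, and Rrn3, which joins the polymerase to its promoter, had log2 fold changes of -0.80 and -0.32 that did not pass either (adjusted p 0.117 and 0.104).

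Among the 11 genes of small subunit processing, 7 fell, with a median log2 fold change of -0.67 over all 11. The called genes included Noc4l (log2 fold change -0.82), a partner of Nop14 in the early particle, Tsr1 (-0.81), a factor of late cytoplasmic maturation, and Nob1 (-0.52), the nuclease of the last cleavage. Ddx10, a helicase, had the smallest difference of the 11 on the log2 scale, at -0.25 (adjusted p 0.401). Rrp12, Heatr1 and Utp20, large scaffold proteins, had log2 fold changes of -0.89, -0.55 and -0.58 that did not pass (adjusted p 0.101, 0.107 and 0.133).

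Of the 19 genes of large subunit assembly, 13 fell, with a median log2 fold change of -0.75. Ebna1bp2, an early assembly factor, had 30.7, 24.9 and 39.0 CPM in BN1 cells and 76.6, 45.7 and 70.3 CPM in control cells. No BN1 value reached a control value, and the log2 fold change was -1.02 (SE 0.18, adjusted p 0.0137). Mrto4, which holds the place of a stalk protein during assembly, had the lowest adjusted p of the 52 genes (0.00991, log2 fold change -0.93). Bop1 fell by 0.75 on the log2 scale. Its partners in one complex, Pes1 and Wdr12, each had a difference of -0.41 on that scale and did not pass (adjusted p 0.0517 and 0.0701). Noc3l and Noc2l had the smallest differences, with log2 fold changes of -0.24 and -0.27 (adjusted p 0.390 and 0.603). Noc2l had only 1.82 to 3.08 CPM in the day 14 libraries, the lowest level of the 52 genes, so its small difference says little.

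Of the 6 abundant or regulatory nucleolar proteins, 3 fell. Npm1, the nucleolar chaperone nucleophosmin, had 1190, 884 and 1130 CPM in BN1 cells and 1950, 1360 and 1670 CPM in control cells. These groups were apart, with a log2 fold change of -0.65 (SE 0.13, adjusted p 0.0193). Gnl3, nucleostemin, had 45.6, 31.9 and 52.2 CPM in BN1 cells and 108, 60.8 and 92.6 CPM in control cells, again without overlap (log2 fold change -1.01, SE 0.22, adjusted p 0.0243). Lyar, a growth-regulated nucleolar protein, fell by 0.96 on the log2 scale (adjusted p 0.0476). Ncl, nucleolin, had 1010, 686 and 1050 CPM in BN1 cells and 1730, 1120 and 1410 CPM in control cells. Every BN1 value was below every control value, yet its log2 fold change of -0.64 did not pass (SE 0.19, adjusted p 0.0568).

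**Figure D3:**
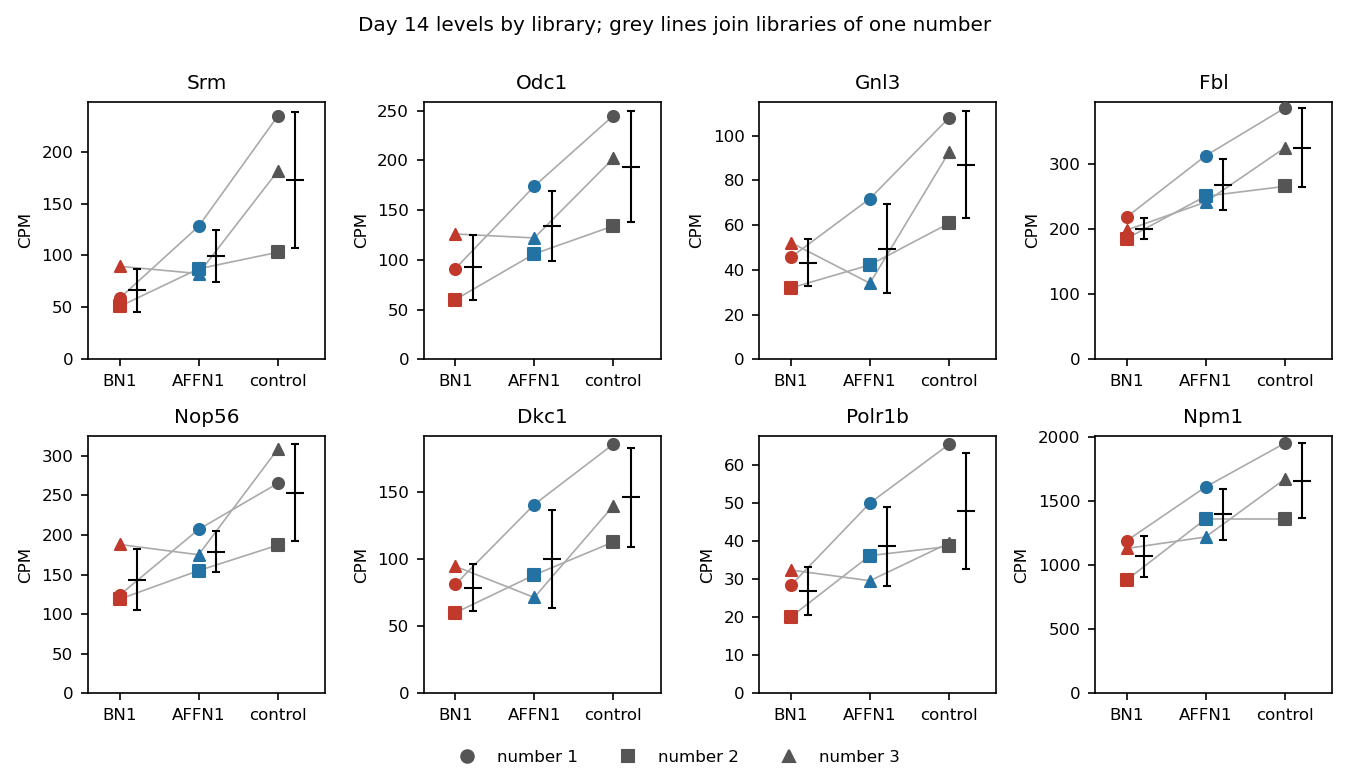
Day 14 level in CPM (vertical axes, from 0) of 8 of the genes in each library, with BN1, AFFN1 and control cells from left to right. Grey lines join libraries of one number, and the black marks give the mean and SD of 3 libraries. BN1 values lie below control values within each number for all 8 genes, and the AFFN1 values of number 3 lie at or below those of BN1 for 6 of them.

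Within the numbers, the BN1 library was lower than the control library for 52, 51 and 49 of the 52 genes, in the order of numbers 1 to 3. The median log2 ratios were -1.04, -0.66 and -0.54. Of all genes, 49.2%, 50.1% and 48.1% were lower, with median log2 ratios of 0.01, -0.00 and 0.02. The BN1 library was lower within all 3 numbers for 48 of the 52 genes, against 24.6% of all genes. Other groups of genes moved beside these on day 14. The DNA replication genes summed to 4060 to 4370 CPM in BN1 cells and 4870 to 5590 CPM in control cells, and 3 of 16 were lower and 0 higher. Of the mitosis genes, 0 of 14 were called, and their median log2 fold change was -0.00. The B-cell precursor markers summed to 8730, 9850 and 10200 CPM in BN1 cells and 6620, 7810 and 9160 CPM in control cells, with 1 of 9 called, higher. Immediate early and stress genes summed to 1100 to 1260 CPM in BN1 cells and 795 to 1070 CPM in control cells, with 1 of 15 tested genes higher. Markers of other cell types were low in every library but moved too. Of the erythroid markers, 2 of 8 passed the filter on low counts and both were lower in BN1 cells, namely the globin genes Hbb-bs and Hbb-bt (log2 fold changes -1.41 and -1.59), and the list summed to 3.55 to 14.1 CPM in BN1 cells and 6.40 to 35.9 CPM in control cells. Of the T and NK markers, 3 of 9 passed that filter and 2 were higher, Nkg7 and Klrb1c (log2 fold changes 1.12 and 3.25), with sums of 15.8 to 28.7 CPM in BN1 cells and 10.6 to 23.6 CPM in control cells, while Cd3e and Cd8a were at 0 in all of these libraries. The myeloid markers summed to 39.6 to 67.9 CPM in BN1 cells and 16.9 to 37.0 CPM in control cells, without overlap. Of the 10 myeloid genes, 2 passed the filter, Lyz2 and Itgam, 0 were called, and Elane was at 0 in these 6 libraries. The stromal markers summed to 40.9 to 72.6 CPM in BN1 cells and 68.2 to 101 CPM in control cells, with 1 of 7 tested genes lower, Thy1 (log2 fold change -0.90). The part of these shifts in the result was not tested.

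Myc, whose product activates many of these genes in other settings, had 239, 104 and 267 CPM in BN1 cells and 635, 204 and 371 CPM in control cells on day 14. It was lower within each number, although BN1 libraries 1 and 3 were above control library 2, and it fell by 0.95 on the log2 scale (adjusted p 0.0231). Of 112 tested genes of the same pathways outside the list, 35 fell in BN1 cells on day 14 and 0 rose, beside 6.61% of all genes lower and 4.95% higher. Their median log2 fold change was -0.41, against -0.00 over all genes. The largest falls were those of Cd3eap, Pno1 and Rcl1. Cd3eap, a subunit of RNA polymerase I, fell by 1.17 on the log2 scale (adjusted p 0.0409). Pno1, a factor of the small subunit, fell by 0.83 (adjusted p 0.0175), and Rcl1, a small subunit factor, by 0.83 (adjusted p 0.0157). The calls of Myc and of the outside genes come from the fit with the block. Without the block, 0.0257% of all genes were called, and without control library 3, 0.236%.

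Since many of these genes changed together, the promoters were searched for CACGTG, the E-box that Myc binds together with Max and that other factors also bind. The motif is a palindrome, so both strands hold it at once. Windows from 250 bases before to 50 bases after the start were found for 45 of the 52 genes in RefSeq (GRCm38.p6). The motif stood in 10 of the 45 (22.2%), against 12.1% of windows of the genes tested on day 14 and 8.09% of all 27025 windows, and in 19.1% of 94 windows of other genes of the same pathways. It was present for 6 of 30 genes that were lower in BN1 cells on day 14 (20.0%) and for 4 of 15 that were not called (26.7%). A match is a description of letters and shows no binding. The sites below are shown to let the flanks be compared, with the motif in capitals, for the called genes first and the others after them.
Nop2 (chr6:125131811-125131840, plus strand, before the start): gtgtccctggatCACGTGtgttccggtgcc
Grwd1 (chr7:45830740-45830767, minus strand, after the start): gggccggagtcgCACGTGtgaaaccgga
Ltv1 (chr10:13193092-13193121, minus strand, after the start): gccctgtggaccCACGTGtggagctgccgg
Tsr1 (chr11:74898092-74898121, plus strand, after the start): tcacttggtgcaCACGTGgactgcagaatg
Nle1 (chr11:82908355-82908384, minus strand, after the start): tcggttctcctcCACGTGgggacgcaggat
Wdr43 (chr17:71616220-71616249, plus strand, after the start): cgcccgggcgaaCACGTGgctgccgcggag
Pes1 (chr11:3963965-3963994, plus strand, after the start): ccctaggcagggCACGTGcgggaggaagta
Utp20 (chr10:88826765-88826789, minus strand, after the start): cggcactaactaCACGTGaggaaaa
Mybbp1a (chr11:72441355-72441376, plus strand, after the start): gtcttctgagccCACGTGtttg
Rrn3, first site (chr16:13780472-13780501, plus strand, before the start): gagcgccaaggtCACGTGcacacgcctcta
Rrn3, other site (chr16:13780639-13780668, plus strand, before the start): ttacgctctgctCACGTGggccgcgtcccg
Rrn3 was the one gene with 2 sites, and its log2 fold change of -0.32 did not pass the test. Nop2, an RNA methyltransferase of the large subunit with 1 site, fell by 0.84 on the log2 scale (adjusted p 0.0246). Pes1, Utp20 and Mybbp1a, each also with 1 site, were not called. A relation between sites and fold changes was not tested.

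In AFFN1 cells on day 14, 0 of the 52 genes passed the test against control cells, beside 0.240% of all genes lower and 0.317% higher. At an unadjusted p under 0.05 there were 26 of the 52 genes, beside 12.2% of all genes, and DESeq2 called 4, beside 2.56% of all genes. All 52 log2 fold changes were below 0 (53.3% of all genes), with a median of -0.42 against -0.02 over all genes. The groups did not overlap for 3 genes, lower in AFFN1 cells (4.34% of all genes), and 46 genes were lower within all 3 numbers (19.8% of all genes). Leaving out AFFN1 library 3 moved the median log2 fold change to -0.18. Gnl3 had the largest difference, with 71.9, 42.2 and 34.0 CPM in AFFN1 cells and the control values given above, and a log2 fold change of -0.83 (SE 0.22, adjusted p 0.170). Srm had 128, 87.1 and 82.5 CPM in AFFN1 cells and a log2 fold change of -0.76 (SE 0.24, adjusted p 0.283). Libraries 1 and 2 of AFFN1 lay between BN1 and control cells of their number for both genes, while library 3 lay below its BN1 partner. Odc1 had 174, 106 and 122 CPM in AFFN1 cells, Ebna1bp2 57.8, 33.5 and 34.8 CPM, Nop56 207, 155 and 175 CPM and Rrp9 34.1, 19.9 and 19.2 CPM. Their log2 fold changes against control cells were -0.53, -0.62, -0.49 and -0.50, and all 4 overlapped with control cells. Dkc1 had 141, 88.4 and 71.6 CPM, Polr1b 50, 36.2 and 29.6 CPM, Polr1a 137, 75.3 and 46.9 CPM, Npm1 1610, 1360 and 1220 CPM and Ncl 1590, 1010 and 778 CPM in AFFN1 cells. Library 3 was the lowest of the AFFN1 libraries for each of these 5 genes.

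**Figure D4:**
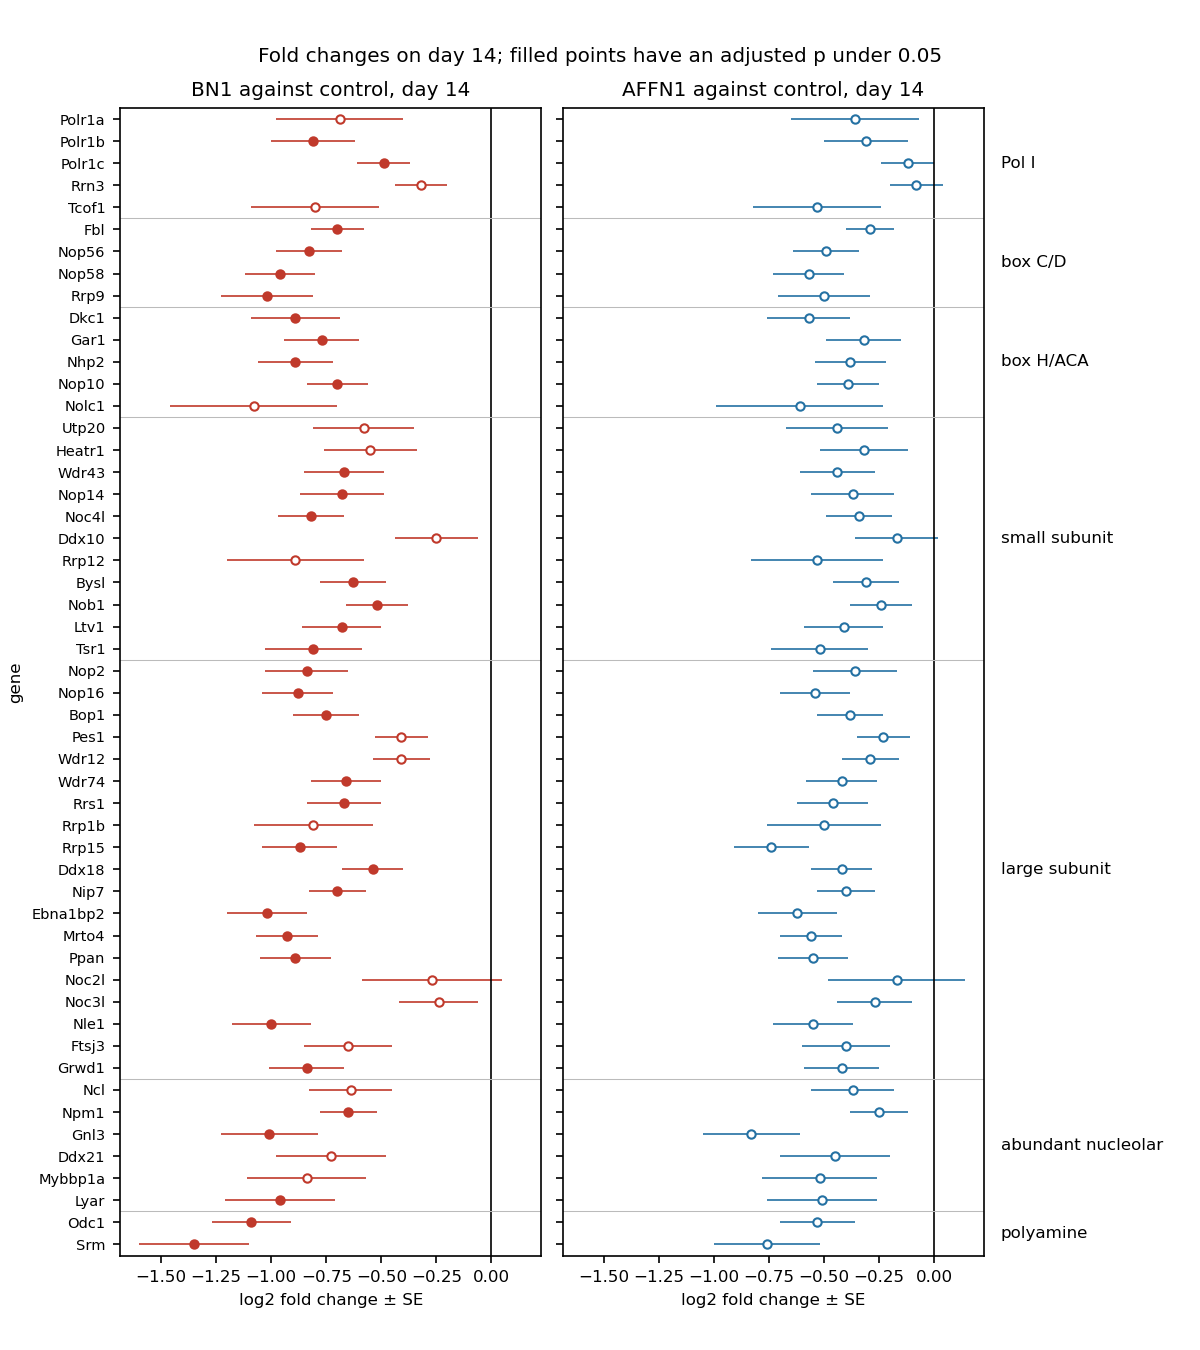
Log2 fold change with its SE (horizontal axis) of each of the 52 genes on day 14, for BN1 and for AFFN1 against control, by role. All points lie below 0, and 35 points are filled for BN1 and 0 for AFFN1, filled points having an adjusted p under 0.05.

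BN1 and AFFN1 cells were also compared directly, since both comparisons with control cells share their controls. On day 14, 0 of the 52 genes differed (0.112% of all genes lower and 0.0686% higher), with 19 at an unadjusted p under 0.05 (36.5%, beside 16.6% of all genes). DESeq2 called 1 (1.92%, beside 3.09% of all genes). Of the log2 fold changes, 51 were below 0 (50.4% of all genes), and BN1 libraries lay below all AFFN1 libraries for 8 genes (8.45%). The median log2 fold change of BN1 against AFFN1 was -0.32, against -0.00 over all genes, and ran from -0.57 without the libraries numbered 3 to -0.12 without those numbered 1. The numbers went different ways, with median log2 ratios of -0.66 and -0.46 in numbers 1 and 2 and 0.14 in number 3. Over all genes these medians were 0.00, -0.00 and 0.01. Within all 3 numbers, 14 of the 52 genes were lower, a share near that of all genes (19.4%). Fbl had the values given above in BN1 cells and 312, 250 and 241 CPM in AFFN1 cells, with no overlap, and a log2 fold change of -0.41 (SE 0.11, adjusted p 0.144). A call in BN1 cells and none in AFFN1 cells was therefore no shown difference between the fusions.

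On day 6, the 52 genes passed the test in at most 1 case. In BN1 against control cells, 0 were called (8.53% of all genes lower, 8.83% higher), with 0 by DESeq2 (21.8% of all genes) and 5 at an unadjusted p under 0.05. Those 5 were 9.62% of the 52 genes, a smaller share than the 32.7% of all genes at that p. The median log2 fold change of the 52 was -0.25 against -0.02 over all genes, and 50 were below 0 (53.0% of all genes). That median rested in part on control library 2, without which it was -0.04, while without control library 3 it was -0.37. In AFFN1 against control cells, 1 gene was lower (4.87% of all genes) and 0 higher (7.79%), with a median log2 fold change of -0.36 against -0.02 and 51 of 52 below 0 (53.4% of all genes). The median was -0.08 without the libraries numbered 2 and -0.73 without those numbered 3. DESeq2 called 3 (5.77%, beside 16.9% of all genes), and 11 had an unadjusted p under 0.05 (21.2%, beside 28.3% of all genes). That gene was Pes1, an assembly factor of the large subunit, with 86.8, 78.8 and 103 CPM in AFFN1 cells and 120, 138 and 105 CPM in control cells. The groups were apart by a narrow margin between AFFN1 library 3 and control library 3 (log2 fold change -0.44, SE 0.12, adjusted p 0.0413). Its call was kept under 7 of 17 alternatives. In BN1 against AFFN1 cells, 0 genes were called (6.19% of all genes lower, 4.99% higher), with 1 at an unadjusted p under 0.05 (1.92%, beside 25.4% of all genes) and 0 by DESeq2 (14.8% of all genes). The median log2 fold change was 0.12, with 10 of 52 below 0 (50.4% of all genes), and it was -0.05 without the libraries numbered 2 and 0.37 without those numbered 3.

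The day 6 counts of calls turned on the libraries numbered 3. Srm had 38.9, 37.9 and 101 CPM in AFFN1 cells, and 91.3, 110 and 50.1 CPM in control cells. AFFN1 library 3 was thus above control library 1, and control library 3 was near AFFN1 libraries 1 and 2. Odc1 had 90.9, 90.4 and 203 CPM in AFFN1 cells and 191, 274 and 151 CPM in control cells. Its AFFN1 library 3 was above control libraries 1 and 3, while AFFN1 libraries 1 and 2 were below every control library. AFFN1 libraries 1 and 2 were both below all 3 controls for 47 of the 52 genes, whereas AFFN1 library 3 was above control library 3 for 49. These orders were counted for the 52 genes only, without a share over all genes. Without the libraries numbered 3, 50 of the 52 genes were lower in AFFN1 than in control cells, when 32.1% of all genes were called in either direction. That fit held only libraries 1 and 2 of each group, and AFFN1 libraries 1 and 2 were the most alike libraries of any group. Without the libraries numbered 1, and without those numbered 2, 0 of the 52 genes were called, beside 2.38% and 3.31% of all genes. On day 6 the labels give no code that libraries of one number share. Without AFFN1 library 3 alone, 23 were lower, beside 14.7% of all genes called in either direction, and without control library 3 alone, 8, or 15.4% of the 52, a share near the 18.4% of all genes.

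BN1 cells on day 6 were less spread for these genes. Srm had 52.2, 69.9 and 62.0 CPM in BN1 cells, which was within the range of the control libraries. Without the libraries numbered 3, 26 of the 52 genes were lower in BN1 than in control cells, when 32.2% of all genes were called in either direction, and without control library 3 alone, 7 (13.5% of the 52, beside 28.6% of all genes). Without the libraries numbered 1, and without those numbered 2, 0 of the 52 genes were called, beside 3.89% and 7.25% of all genes. In the fit without the libraries numbered 3, Srm differed by -0.73 on the log2 scale (adjusted p 0.00466), while Fbl differed by -0.66 (adjusted p 0.00363). Polr1b and Polr1a each differed by -0.11 (adjusted p 0.557 and 0.528). In BN1 against AFFN1 cells, 16 of the 52 genes were higher in that fit (30.8%, when 14.4% of all genes were called in either direction). Among them was Polr1b, by 0.79 on the log2 scale (adjusted p 0.00464). Leaving out the libraries numbered 1, or those numbered 2, gave 0 calls between BN1 and AFFN1 cells (2.5% and 4.47% of all genes). BN1 library 3 and control library 3 also held more RNA of immediate early and stress genes, at 2700 and 1260 CPM, against 737 to 864 CPM in the other day 6 libraries, while AFFN1 library 3 had 864 CPM, and the part of these shifts in the result was not tested.

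In the other fixed genes on day 6, too, library 2 was the highest and library 3 the lowest of the control libraries, and library 3 was the highest of the AFFN1 libraries. Npm1 had 696, 867 and 765 CPM in BN1 cells, 750, 759 and 997 CPM in AFFN1 cells and 1020, 1340 and 783 CPM in control cells. Ncl had 1120, 1260 and 1170 CPM in BN1 cells, 947, 935 and 1340 CPM in AFFN1 cells and 1330, 1770 and 1110 CPM in control cells. Both genes overlapped between all groups, and none of their day 6 log2 fold changes passed the test. Fbl had 132, 145 and 154 CPM in BN1 cells, 120, 128 and 175 CPM in AFFN1 cells and 191, 245 and 151 CPM in control cells, and control library 3 alone brought its groups together. Its log2 fold changes of -0.46 for BN1 and -0.48 for AFFN1 had an SE of 0.18 each (adjusted p 0.116 and 0.120). Gnl3 had 78.1, 99.4 and 78.7 CPM in BN1 cells, 54.5, 60.5 and 105 CPM in AFFN1 cells and 97.0, 141 and 79.2 CPM in control cells. Dkc1 had 111, 132 and 115 CPM in BN1 cells, 84.5, 85.0 and 126 CPM in AFFN1 cells and 132, 191 and 105 CPM in control cells. In both genes AFFN1 libraries 1 and 2 were the lowest of the day. Nop56 had 218, 250 and 203 CPM in BN1 cells, 179, 175 and 260 CPM in AFFN1 cells and 244, 330 and 188 CPM in control cells. Polr1a had 77.3, 79.9 and 62.9 CPM in BN1 cells, 55.4, 50.2 and 76.8 CPM in AFFN1 cells and 73.3, 95.6 and 57.4 CPM in control cells. Polr1b had 50.8, 60.5 and 47.7 CPM in BN1 cells, 29.6, 34.4 and 61.2 CPM in AFFN1 cells and 53.1, 66.6 and 38.6 CPM in control cells. These 5 genes each had log2 fold changes between -0.54 and -0.01 against control cells in either fusion, and none passed.

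Whether a fusion's difference from control cells changed between the days was tested on all 18 libraries. For BN1, 0 of the 52 genes had a different effect on day 14 (2.23% of all genes lower, 3.60% higher), with 9 at an unadjusted p under 0.05 (17.3%, near the 18.5% of all genes) and 1 by DESeq2. Of the changes in effect, 50 of 52 were below 0, and their median on the log2 scale was -0.53 against -0.00 over all genes, and stayed between -0.70 and -0.35 with libraries left out. For AFFN1, 0 had a different effect (1.42% of all genes lower, 1.45% higher), with 0 at an unadjusted p under 0.05 (13.8% of all genes) and 0 by DESeq2. Its median was -0.03, and ran from -0.34 without the day 6 libraries numbered 2 to 0.36 without those numbered 3. The fall in BN1 cells on day 14 was therefore not shown to differ from day 6. Myc had a change in BN1 effect of -0.85 on the log2 scale that did not pass (SE 0.32, adjusted p 0.162).

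Control cells of day 14 and of day 6 come from libraries with different naming schemes, so a difference between days cannot be told apart from one between experiments. The median log2 fold change of the 52 genes was 0.04, with 23 below 0 (53.0% of all genes), and it was -0.11 without day 6 library 3 and 0.26 without day 6 library 2. Of them, 8 were higher on day 14 (25.6% of all genes) and 2 lower (27.0%), a smaller share than among all genes. Nop10 had 125, 89.4 and 95.5 CPM on day 14 and 50.4, 61.5 and 38.9 CPM on day 6, with no overlap (log2 fold change 1.03, SE 0.15, adjusted p 3.65e-05). Fbl had 385, 265 and 324 CPM on day 14 and 191, 245 and 151 CPM on day 6 (log2 fold change 0.72, SE 0.16, adjusted p 0.00154). Noc4l had 147, 79.9 and 85.7 CPM on day 14 and 62.6, 69.9 and 42.2 CPM on day 6, and Nhp2 had 162, 96.5 and 144 CPM on day 14 and 78.5, 100 and 59.4 CPM on day 6. Their log2 fold changes were 0.80 and 0.73 (adjusted p 0.00368 and 0.00617), and the groups of Nhp2 overlapped by 1 library. The other genes higher on day 14 were Pes1, Npm1, Nop14 and Nob1, with log2 fold changes of 0.71, 0.65, 0.53 and 0.42.

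Polr1c was lower on day 14, with 40.3, 35.0 and 40.5 CPM on day 14 and 49.3, 53.5 and 48.6 CPM on day 6 (log2 fold change -0.39, SE 0.09, adjusted p 0.00239). Noc2l, a nucleolar inhibitor of histone acetylation, had 3.08, 2.86 and 2.45 CPM on day 14 and 210, 252 and 151 CPM on day 6. Its log2 fold change of -6.19 is uncertain, and its cause was not tested. Its exons, 2.867 kb in all, overlap those of Samd11 on the other strand by 598 bases. The strand setting of the counting is not given in the sources used here. Samd11 had 0.801 to 1.54 CPM in control cells of day 6 and 0 CPM in all day 14 libraries. In all, 235 genes had a log2 difference over 5 between the days in control cells, and Noc2l was the only one of the 52. Its values within a day stayed close together, at 144 to 252 CPM on day 6 and 1.82 to 3.08 CPM on day 14.

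Levels were compared between genes per kilobase of merged exons, averaged over the 18 libraries. Npm1 had the highest level with 424 CPM per kilobase, followed by Ncl with 117 and Nhp2 with 73.2, and Wdr12 had the lowest with 4.83. By the longest coding transcript instead, Npm1 stayed first with 692 CPM per kilobase, while Fbl stood next with 177 and Ncl after it with 145, so the order below Npm1 depends on the length used.

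Outside the list, Paox and Smox, genes of polyamine breakdown, were higher in both fusions on day 6. Paox, a polyamine oxidase, had log2 fold changes of 0.69 in BN1 and 0.73 in AFFN1 cells (SE 0.10 for both, adjusted p 0.000869 and 0.000966). Smox, spermine oxidase, had log2 fold changes of 2.02 and 2.30 in BN1 and AFFN1 cells (adjusted p 0.00557 and 0.00351). Both comparisons share their controls. Of 8 genes of polyamine metabolism outside the list, 3 were higher in BN1 and 2 in AFFN1 cells on day 6. In BN1 cells Oaz2 also rose (log2 fold change 0.37, adjusted p 0.0354), while Sat1 did not pass (0.05, adjusted p 0.832). On day 14, 0 of the 8 were called against control cells in either fusion. Of the 113 genes of the same pathways outside the list, 3 rose and 4 fell in BN1 cells on day 6 (8.83% and 8.53% of all genes). In AFFN1 cells, 2 rose and 3 fell (7.79% and 4.87% of all genes). These were smaller shares than among all genes. Taf1b, a subunit of the selectivity factor of RNA polymerase I, had the largest fall of these 113 genes in BN1 cells on day 6, with a log2 fold change of -0.83 (SE 0.09, adjusted p 0.000193), and it was also lower in BN1 than in AFFN1 cells of that day (log2 fold change -0.69, adjusted p 0.000792). On day 14, 0 of 112 passed in AFFN1 against control cells, beside 0.24% of all genes lower and 0.317% higher (28 at an unadjusted p under 0.05, beside 12.2% of all genes).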

How the data were processed

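Expected counts of reads per gene were deposited by the authors for 18 libraries. STAR, RSEM, DESeq2 and mm10 are named in the submitters' processing notes, without versions. The labels' protocols state poly(A) selection and a stranded kit. In a library, 1.74 to 2.12% of values were not whole (0 of the 52 genes had such a value), and values were rounded. Genes were named as in the table, and coordinates come from GENCODE M21 (99.6% of identifiers found).

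In R 4.3.3, edgeR 4.0.16 was used with filterByExpr, TMM scaling and the robust quasi-likelihood test, two-sided, with Benjamini-Hochberg adjustment over all tested genes, and calls were made at an adjusted p under 0.05. Each day was fitted on its 9 libraries. On day 14 the number of a library was a block, since the 3 libraries of a number share a code in the labels and their deviations from the group means correlated (r 0.306 to 0.685 in 9 pairs, against -0.553 to 0.0395 between different numbers). No block was used on day 6. Comparisons across days used all 18 libraries, with the code as a term on day 14. DESeq2 1.42.0 was an alternative. CPM is the rounded count per 1e6 counts, scaled by TMM over 18 libraries, and fold changes use the scaling of their own fit. Pair ratios add 1 CPM. The procedure was tested on simulated data.

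The 52 genes, the lists and the day 14 block were chosen with earlier results of these data known. Values in every library are given for 10 fixed genes and for the up to 4 genes with the largest called differences in each direction of each comparison, with up to 3 called genes per direction from other lists of the same pathways. Of the 52 genes, 19 have exons that overlap a gene on the other strand. The lowest chi-square per degree of freedom between libraries of a group was 3.84, for AFFN1 libraries 1 and 2 of day 6. The other pairs ran from 11 to 122, so no library was a copy of another of its group. Libraries of different groups were not compared in this way.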

Additional observations from a re-analysis of the deposited data

Results flagged for a closer look

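A few of the 113 genes of the same pathways outside the list had a fusion effect that differed between day 14 and day 6. The difference itself was tested on all 18 libraries. For BN1, 1 changed upward and 2 downward, beside 3.60% and 2.23% of all genes. For AFFN1, 0 changed upward and 1 downward, beside 1.45% and 1.42% of all genes. These were smaller shares than among all genes. Paox, a polyamine oxidase, had a change in BN1 effect of -0.86 on the log2 scale (SE 0.16, adjusted p 0.00371) and a change in AFFN1 effect of -0.64 (SE 0.16, adjusted p 0.0434), with log2 fold changes of -0.18 on day 14 and 0.69 on day 6 in BN1 cells. Rcl1, a small subunit factor, had a change in BN1 effect of -0.92 (SE 0.25, adjusted p 0.0363), with log2 fold changes of -0.83 on day 14 and 0.09 on day 6. Taf1b, a subunit of the selectivity factor of RNA polymerase I, had a change in BN1 effect of 1.03 (SE 0.14, adjusted p 0.000188), with log2 fold changes of 0.19 on day 14 and -0.83 on day 6. Its log2 difference between control cells of the days was -0.77, and the days may be separate experiments.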

How the results depend on the processing

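The number of the 52 genes called changed with the setting more than their direction did. For BN1 against control on day 14, 0 genes were called with no replicate block (0.0257% of all genes), against 35 with it (11.6%). Counts ran between 0 and 45 when libraries or numbers were left out (0.236% and 13% of all genes at those ends). DESeq2 called 45 (15.7% of all genes), scaling by relative log expression 34 (11.2%), no filter 35 (8.24%) and all 18 libraries in one fit 37 (18.7%). For AFFN1 against control on day 6, the call of Pes1 became 0 with a replicate block (11.2% of all genes), although equal numbers did not deviate together on that day (r -0.409 to 0.378 in 9 pairs). DESeq2 called 3 (16.9% of all genes), and counts ran between 0 and 50 when libraries were left out, the 50 beside 32.1% of all genes. BN1 against control on day 6 ran between 0 and 26 calls, the 26 beside 32.2% of all genes. BN1 against AFFN1 on day 6 ran between 0 and 16, the 16 beside 14.4%. On day 14, AFFN1 against control had 4 calls with DESeq2 (2.56% of all genes) and 1 without the filter (0.795%). It had between 0 and 4 with libraries left out, the 4 beside 2.25% of all genes. BN1 against AFFN1 had 1 with DESeq2 (3.09%), 1 with all 18 libraries (2.91%) and 0 with libraries left out. The BN1 effect between days had 1 with DESeq2 and between 0 and 3, beside 3.60% of all genes higher and 2.23% lower. The AFFN1 effect had 0 throughout, beside 1.45% and 1.42%. Control cells between days had 8 to 14 of the 52 genes, beside 25.6% of all genes higher and 27.0% lower. For these comparisons between days, the shares of all genes are those of the fit as reported, not of each setting. Of 892 recomputed values of called genes, 0 had the other sign. Among all 2560 recomputed values, 125 had the other sign, with neither value called. The cause of these changes was not tested. Levels per kilobase of the longest coding transcript were added after seeing the data. With 3 libraries in a group, leaving out 1 changes the count of calls, and depth was at least 14182539 counts in every library.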
